A study of Mus musculus with 12 samples.

Results

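Vomeronasal receptors are the pheromone receptors of the vomeronasal organ in the nose, encoded in the mouse by the 2 large families Vmn1r and Vmn2r. The Vmn1r genes have short single-exon coding regions, and the Vmn2r genes encode receptors with a long extracellular domain. Both families lie in tandem clusters on several chromosomes, are used by sensory neurons that each express very few of them, and are silent in B cells. Here they were followed as a group of silent, densely clustered genes in dividing B cells. A gene was included when its symbol began with Vmn1r or Vmn2r and at least 5 measured CpGs were assigned to it, each within 50 kb of the nearest start site. This gave 153 of the 16505 genes with at least 5 such CpGs, 85 of the Vmn1r and 68 of the Vmn2r family. In 25 of the 153, the nearest start site of 1 or more CpGs was recorded under a different or missing gene entry. Of the 153, 4 are named as pseudogenes (Vmn1r-ps103, Vmn2r-ps11, Vmn2r-ps54 and Vmn2r-ps60). The genes held 1777 of the 760348 CpGs in the table, out of 1998 CpGs and 246 symbols of these families within 50 kb.

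DNA methylation was measured by reduced representation bisulfite sequencing (RRBS), in which fragments cut by MspI (CCGG) and TaqI (TCGA) are read after bisulfite treatment. Splenic B cells (B220+ CD43-) of naive mice carried the dye CFSE or CTV, which dilutes at each division, and the labels give female sex and an age of 8 weeks. They were placed in uMT hosts, which lack mature B cells of their own because of a mutated immunoglobulin heavy chain gene, rested overnight and were stimulated with LPS. After 3 days the cells were sorted by division into the fractions Div0, Div1, Div3 and Div5 and, at 8 or more divisions, into Div8neg (CD138-) and Div8pos (CD138+). CD138 (Sdc1) marks plasmablasts and plasma cells. The series text names C57/BL6J donors, whereas the strain label reads B6.SJL-Ptprca Pepcb/BoyJ. All 6 fractions came from each of 2 hosts, numbered 196 and 197, so that n = 2 in every fraction, 12 samples in all. All groups shared the transfer, the host genotype and the LPS, and no sample without LPS was analysed here.

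Each CpG of the table had at least 10 reads in every sample, and the samples held 17969105 to 56775157 reads over all CpGs and 39161 to 124337 over the vomeronasal receptor CpGs. Host 196 was the shallower in each fraction. The median coverage of a receptor CpG ran from 20 to 64 reads between samples. Among the B cell genes, Pax5 and Ebf1, transcription factors of B cell identity, were at 19.2% and 20.6% at Div0, whereas the T cell gene Cd4 was at 93.9% and the myeloid gene Csf1r at 98.8%. How reads that fit several near-identical receptor copies were placed is not given in the sources used here, so the level of any single close copy is uncertain. Of the marker genes listed by cell type, 2 of 7 T cell, 3 of 6 myeloid, 2 of 4 NK cell, 1 of 3 erythroid, 4 of 6 B cell and 3 of 6 plasma cell genes fell at Div8pos, where 15.7% of all genes were called lower, and their part in the results on the receptors was not tested. In bulk samples, a small loss in all cells and a complete loss in some cells cannot be told apart.

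The measured CpGs of these genes mostly lay away from promoters. Of the 1777, 84.7% were intergenic, 11.8% intronic, 1.97% exonic and 1.58% in promoters, against 32.3% intergenic and 17.4% promoter CpGs in the whole table. A receptor gene had a median of 10 measured CpGs, against 26 for all genes tested. The RefSeq promoter sequences (build GRCm38.p6, from 250 bases before to 50 bases after the start) held few CG and few sites of the 2 enzymes. RefSeq gave one for 133 of the 153 genes. The dinucleotide CG occurred a median of 1 time in these 300 bases, against 7 times in all 32851 promoters, and 40 of the 133 (30.1%) held none, against 5.43% of all promoters. The MspI site CCGG was present in 11 of them (8.27%, against 52.8% of all promoters) and the TaqI site TCGA in 13 (9.77%, against 22.0%). Both motifs read the same on either strand.

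The promoters of Vmn2r103, the one gene with measured CpGs in that window, of the genes with the 3 largest losses (Vmn1r203, Vmn1r213 and Vmn2r2), and of Vmn2r29, with the most CG in its window, are shown with CG in capitals. They lie at chr17:19773113-19773412 (+ strand), chr13:22523801-22524100 (+), chr13:23010999-23011298 (+), chr3:64137431-64137730 (- strand) and chr7:7278240-7278539 (-) of GRCm38.p6.
Vmn2r103: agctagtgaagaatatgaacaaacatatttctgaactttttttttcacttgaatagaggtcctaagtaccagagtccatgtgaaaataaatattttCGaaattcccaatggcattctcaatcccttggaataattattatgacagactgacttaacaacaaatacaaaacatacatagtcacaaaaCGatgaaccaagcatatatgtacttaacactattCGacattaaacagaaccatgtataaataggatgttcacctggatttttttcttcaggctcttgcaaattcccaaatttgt
Vmn1r203: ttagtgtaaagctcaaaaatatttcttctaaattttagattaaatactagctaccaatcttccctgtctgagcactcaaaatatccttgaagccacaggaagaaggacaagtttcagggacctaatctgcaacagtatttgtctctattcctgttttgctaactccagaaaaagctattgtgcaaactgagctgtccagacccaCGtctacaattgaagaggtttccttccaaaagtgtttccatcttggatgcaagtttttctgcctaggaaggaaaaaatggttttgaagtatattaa
Vmn1r213: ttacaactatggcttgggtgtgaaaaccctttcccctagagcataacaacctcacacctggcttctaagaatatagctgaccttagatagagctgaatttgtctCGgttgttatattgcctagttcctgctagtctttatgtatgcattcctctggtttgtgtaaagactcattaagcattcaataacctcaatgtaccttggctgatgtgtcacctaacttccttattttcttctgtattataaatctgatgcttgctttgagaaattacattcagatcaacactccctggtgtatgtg
Vmn2r2: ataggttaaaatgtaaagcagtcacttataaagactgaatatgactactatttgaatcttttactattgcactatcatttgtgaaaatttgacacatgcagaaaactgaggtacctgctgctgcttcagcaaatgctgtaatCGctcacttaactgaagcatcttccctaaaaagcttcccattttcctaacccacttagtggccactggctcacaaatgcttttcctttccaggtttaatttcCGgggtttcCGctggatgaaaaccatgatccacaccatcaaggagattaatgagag
Vmn2r29: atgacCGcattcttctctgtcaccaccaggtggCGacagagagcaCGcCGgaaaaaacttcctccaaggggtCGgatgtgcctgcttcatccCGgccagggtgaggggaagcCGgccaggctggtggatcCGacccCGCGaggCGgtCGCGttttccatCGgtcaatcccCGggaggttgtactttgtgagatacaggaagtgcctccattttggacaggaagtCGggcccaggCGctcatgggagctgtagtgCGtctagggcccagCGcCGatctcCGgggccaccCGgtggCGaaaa
The Vmn1r203 and Vmn1r213 windows hold 1 CG each, those of Vmn2r103 and Vmn2r2 hold 3, and that of Vmn2r29 holds 23.

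Only 2 of the 1777 CpGs were measured within such a window, both in Vmn2r103 and both in the files' build mm9 at distances, 153 and 63 bases before the start, that match the first and the second CG of the sequence above to within 1 base. They were 90 bases apart and far apart in level. The first was at 15.0% ± 8.37 (SD, n = 2) at Div0 and 10.08% ± 5.03 at Div8pos, which did not differ by the quasi-binomial test over all CpGs (adjusted p = 0.39). The second was at 92.1% ± 11.2 at Div0, 79.2% ± 0.652 at Div8neg and 75.1% ± 1.88 at Div8pos. Its adjusted p at Div8pos was 0.0453 with a difference of -16.9 points, short of the 20 points set for a call.

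At Div0 the receptor genes were among the more methylated genes of the table. The level of a gene is the mean percent methylation of its CpGs, and 138 of the 153 (90.2%) were at or above 80%, against 24.9% of all genes tested. Their median was 92.8%, against 50.2% for all genes. Of the single receptor CpGs, 86.4% were at 80% or more at Div0, 10.64% between 20% and 80%, and 2.98% under 20%.

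Methylation of the receptor genes was lower in the later fractions, most of all after 8 or more divisions. Over the 153 genes the mean was 89.9% ± 0.0515 in Div0 cells, 89.7% ± 0.16 in Div1 cells, 89.3% ± 0.184 in Div3 cells, 88.5% ± 0.00917 in Div5 cells, 85.6% ± 0.161 in Div8neg cells and 81.8% ± 0.295 in Div8pos cells (SD, n = 2). Div8neg and Div8pos lay below all earlier fractions in both hosts, and Div8pos below Div8neg. Within hosts, Div1 differed from Div0 by a mean of -0.175 ± 0.211 points, Div3 by -0.621 ± 0.236, Div5 by -1.38 ± 0.0423, Div8neg by -4.32 ± 0.109 and Div8pos by -8.09 ± 0.346 points. Odorant receptor genes (Olfr, 255 genes), the other large clustered chemoreceptor family, went from 88.6% ± 0.170 at Div0 to 80.6% ± 0.630 at Div8pos. The 4114 genes of any kind at 80% or more at Div0 went from 91.2% ± 0.111 to 81.4% ± 0.437. The high starting level of that group is fixed by its definition.

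**Figure D1:**
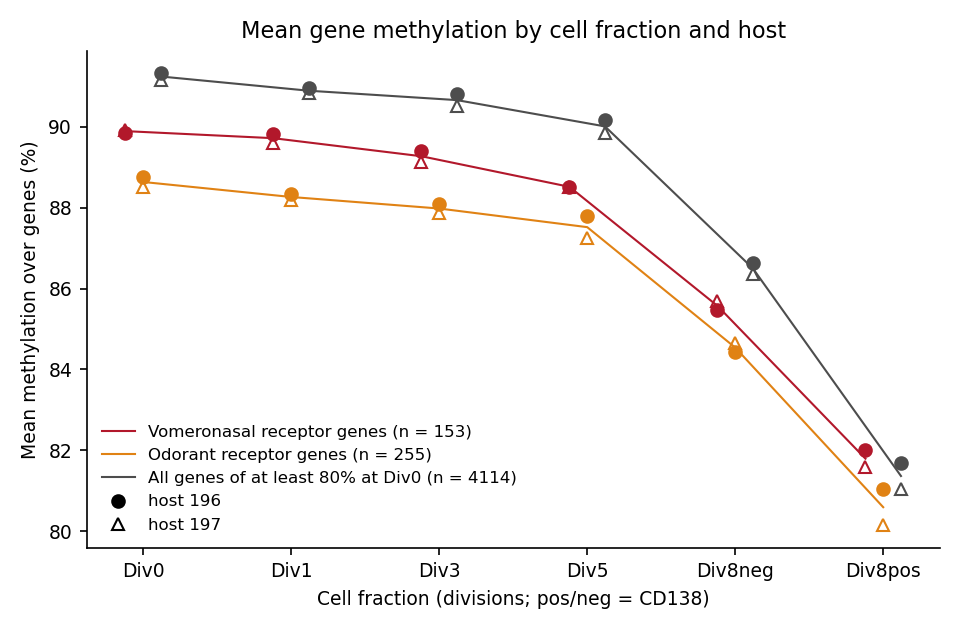
Mean methylation (%) over the 153 vomeronasal receptor genes, the 255 odorant receptor genes and all 4114 genes of at least 80% at Div0, by cell fraction; each point is 1 host and lines join the means of the 2 hosts. The receptor genes stay between 88.5% and 89.9% up to Div5 and are at 85.6% at Div8neg and 81.8% at Div8pos.

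Gene by gene, each fraction was tested with limma on the percent scale over all 16505 genes with Benjamini-Hochberg adjustment, and a gene was called at an adjusted p under 0.05 and a difference of at least 10 points. At Div8pos against Div0, 40 of the 153 receptor genes (26.1%) fell and none rose, where 15.7% of all genes were called lower. The 40 were 21 Vmn1r and 19 Vmn2r genes. The median difference was -7.72 points for the receptor genes, -5.21 for all genes and -7.43 for the odorant receptor genes, of which 81 of 255 (31.8%) were called. Set beside genes that also started high, the order turned: of the 138 receptor genes at 80% or more at Div0, 38 (27.5%) were called with a median of -7.94 points, whereas 44.0% of the 4114 such genes of any kind were called with a median of -9.46 points. Without the size limit, 141 of the 153 were lower at an adjusted p under 0.05 (80.4% of all genes), so that most of the group moved by less than 10 points. In 145 of the 153 the 2 Div8pos samples lay below both Div0 samples, as in 89.75% of all genes. With at least 20 reads per CpG in every sample, 46 receptor genes were left and 3 of them (6.52%) were called, below the 10.98% of all genes under that setting.

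At Div8neg against Div0, 7 receptor genes (4.58%) fell, against 1.49% of all genes. This order turned under other settings, with 2.61% of the receptor genes against 4.89% of all genes from summed reads, 1.96% against 4.70% from log2 ratios of those sums, and 0% against 1.36% at 20 reads per CpG. Among genes at 80% or more at Div0 the shares were close, with 3.62% of the receptor genes against 3.48% of all such genes. Of the odorant receptor genes, 3.14% were called. The 7 receptor genes were Vmn1r203, Vmn1r213, Vmn1r175, Vmn1r26, Vmn2r2, Vmn2r25 and Vmn2r107, and all 7 were also among the 40 called at Div8pos. At Div8pos against Div8neg, 5 (3.27%) fell, against 2.09%: Vmn1r203, Vmn1r213, Vmn1r39, Vmn1r171 and Vmn1r9. Among genes at 80% or more at Div0 this order turned, with 2.90% of the receptor genes against 5.64% of all such genes. It also turned without the size limit (44.4% against 54.2%), at 20 reads per CpG (0% against 1.61%) and from log2 ratios of summed reads (0% against 0.485%). Other settings, summed reads among them (3.27% against 2.01%), kept it. Without the Div0 sample of host 196, 4 were called at Div8neg. Against Div8neg, 8 were called without the Div8neg sample of host 196 or without the Div8pos sample of host 197. Along the divisions from 0 to 8 without the CD138+ cells, 5 receptor genes (3.27%) had a falling trend of at least 10 points, against 1.11% of all genes. These were Vmn1r203, Vmn1r213, Vmn1r175, Vmn2r2 and Vmn2r107. Among genes at 80% or more at Div0 the receptor share was 2.17%, against 2.21% of all such genes. From summed reads it was 2.61% against 2.59% of all genes, and at 20 reads per CpG 0% against 1.23%.

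In the earlier fractions no receptor gene was called. The limma counts were 0 at Div5 (0.103% of all genes), 0 at Div3 (0% of all genes) and 0 at Div1 (0%), with 18, 14 and 15 receptor genes at an unadjusted p under 0.05 in either direction. At Div5, Vmn1r203 (-7.60 points, adjusted p = 0.0422) and Vmn1r72 (-5.61 points, adjusted p = 0.0158) passed the p but not the size limit. The limma calls with the host as a block (the 6 fractions of a host come from 1 animal) were the same 40 genes at Div8pos and the same 7 at Div8neg.

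The share of genes called went with the number of CpGs behind a gene. The median difference of the receptor genes changed little between 5 to 9 CpGs (-8.17 points) and 10 to 19 (-7.93 points). Among genes with 5 to 9 measured CpGs, 29 of 74 receptor genes (39.2%) were called at Div8pos, close to the 37.3% of all genes with as many CpGs and below the 50.2% of those that started at 80% or more. With 10 to 19 CpGs the counts were 11 of 61 (18.03%), 22.4% and 43.8%. With 20 or more, limma called 0 of 18 receptor genes, against 8.40% and 37.1%, although 17 of the 18 had an adjusted p under 0.05 and a median of -5.70 points. At the limit of the definition, the 17 genes with exactly 5 CpGs had a median difference of -8.17 points and the 14 with 4 CpGs, which were left out, of -9.41 points.

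**Figure D2:**
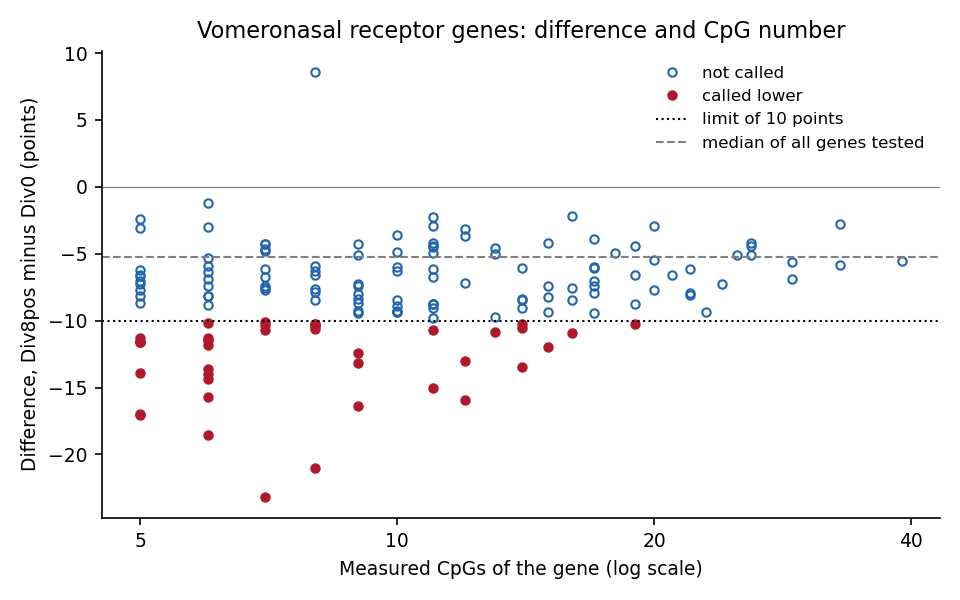
Difference in methylation between Div8pos and Div0 (percentage points) of each of the 153 genes against its number of measured CpGs on a log axis; filled points are called lower, the dotted line is the limit of 10 points and the dashed line the median of all genes tested. The called genes have 5 to 19 CpGs, and 1 gene, Vmn2r62, lies above 0.

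Members with neighbouring CpGs at most 1 Mb apart were taken as 1 chromosomal cluster. This gave 29 clusters on 12 chromosomes and an unplaced sequence, 18 of the clusters with more than 1 gene and 16 with 3 or more. The mean difference of a cluster was lower at Div8pos in both hosts for 26 of the 29. Among the 16 clusters of 3 or more genes it ran from -12.0 to -4.99 points. No test was made between clusters, and their genes are not replicates of a condition.

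The largest mean loss was in the Vmn1r cluster of chromosome 13 (mm9, 22.4 to 23.4 Mb, 11 genes, 123 CpGs), at -12.0 points ± 0.56 (SD of 2 hosts). All 11 genes were lower at an adjusted p under 0.05 and 5 were called, the 3 largest being Vmn1r203, Vmn1r213 and Vmn1r-ps103. In Vmn1r203 (7 CpGs, chr13:22607367-22617044) the level in hosts 196 and 197 was 78.3% and 80.1% at Div0, 74.0% and 76.0% at Div1, 74.3% and 75.3% at Div3, 72.0% and 71.2% at Div5, 65.6% and 69.3% at Div8neg, and 56.3% and 55.8% at Div8pos. Each of the last 3 fractions lay wholly below the one before it. The gene fell by 23.2 points at Div8pos (standard error 1.23, adjusted p = 2.18e-06), the largest fall of the family in that fraction, and fell by 11.7 at Div8neg (adjusted p = 0.000556). Of its 7 CpGs, 5 were called at Div8pos: 1 lies 8.6 kb, 2 lie 3.7 kb and 2 lie 1.0 kb from the start.

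Vmn1r213 (8 CpGs, chr13:23088503-23107037) was at 93.1% and 85.6% at Div0, 94.8% and 84.3% at Div1, 89.0% and 88.0% at Div3, 82.3% and 85.5% at Div5, 77.9% and 80.1% at Div8neg, and 69.2% and 67.4% at Div8pos. Its hosts were far apart at Div0 and Div1 and close at Div8pos, where both lay below all other samples. It fell by 21.0 points at Div8pos (standard error 3.23, adjusted p = 0.000293). The pseudogene Vmn1r-ps103 (5 CpGs) went from 95.5% and 92.0% at Div0 to 82.0% and 86.6% at Div8neg and 80.1% and 73.4% at Div8pos, a difference of -17.0 points (adjusted p = 0.00011). Its CpG at chr13:22510782, intergenic and with no other measured CpG within 100 bp, had the largest called loss of the cluster, from 85.1% ± 2.48 to 45.7% ± 3.30 (adjusted p = 0.000955). Vmn1r204 fell by 15.7 points (adjusted p = 0.002).

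The gene of this cluster with the most CpGs, Vmn1r223 (29 CpGs), started much lower. It was at 47.0% and 48.4% at Div0 and 41.3% and 42.9% at Div8pos, a difference of -5.60 points (adjusted p = 0.00025). Its CpGs fell into 4 stretches: 10 CpGs 11.8 kb from the start were at 97.6% at Div0 and 93.5% at Div8pos, 5 CpGs at 20.6 kb at 37.9% and 34.4%, 12 CpGs at 36.2 kb at 17.7% and 9.13%, and 2 CpGs at 37.2 kb at 2.55% and 2.38%. Its mean level thus mixes stretches of very different level.

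The Vmn2r cluster of chromosome 3 (63.9 to 64.6 Mb, 5 genes) was close behind, at -11.9 points ± 1.299. It holds Vmn2r1, Vmn2r2 and Vmn2r3, members of a small subfamily whose receptors are found together with other Vmn2r receptors in the same neurons. Vmn2r2 (6 CpGs, chr3:63923619-63983814) was at 72.1% and 75.8% at Div0, 66.6% and 67.9% at Div1, 69.7% and 63.6% at Div3, 65.9% and 66.1% at Div5, 61.1% and 57.4% at Div8neg, and 55.9% and 54.8% at Div8pos. All later samples lay below both Div0 samples. It fell by 14.7 points at Div8neg (adjusted p = 0.0013) and by 18.6 at Div8pos (standard error 1.99, adjusted p = 3.73e-05), and the further difference between these fractions, -3.89 points, did not pass (adjusted p = 0.123).

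Vmn2r3 (12 CpGs, chr3:64051212-64133560) held its level longer, at 85.5% and 87.7% at Div0, 85.8% and 88.4% at Div1, 87.1% and 85.1% at Div3, 85.8% and 82.4% at Div5, 79.3% and 77.2% at Div8neg, and 68.5% and 72.8% at Div8pos. It fell by 16.0 points at Div8pos (standard error 1.73, adjusted p = 3.89e-05), and with 20 reads per CpG it was not called (-9.15 points). Of its 12 CpGs, 5 were called lower. In Vmn2r-ps11, the pseudogene with the most CpGs of the cluster (16), the values were 91.2% and 92.7% at Div0 and 85.6% and 81.4% at Div8pos, which missed the limit at -8.49 points.

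On chromosome 17, the Vmn2r cluster at 22.7 to 23.6 Mb had the highest share of called genes among the clusters of 3 or more, 4 of 6, with a mean of -10.8 points ± 1.87. Vmn2r116, the receptor of the male tear peptide ESP1, fell by 14.0 points (standard error 0.853, adjusted p = 3.13e-06), Vmn2r115 fell by 13.6, Vmn2r111 fell by 11.6 and Vmn2r117 fell by 10.57. At Div8neg these 4 differed from Div0 by only -4.36, -4.08, -3.66 and -1.66 points. Vmn2r113, with the most CpGs (14), went from 95.1% and 95.3% to 89.2% and 89.1%. The larger chromosome 17 cluster (17.8 to 21.4 Mb, 16 genes of both families) had 5 called genes and a mean of -8.23 points ± 1.02. In it Vmn2r90 (5 CpGs) went from 92.8% and 92.7% at Div0 to 77.8% and 87.9% at Div8neg and 74.6% and 77.0% at Div8pos, a difference of -17.0 points (adjusted p = 0.000528).

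Vmn2r103 of the same cluster, whose promoter is printed above, had the smallest error among the 10 largest falls. It was at 82.1% and 80.9% at Div0, 77.9% and 78.0% at Div1, 76.5% and 76.3% at Div3, 78.7% and 78.0% at Div5, 73.2% and 73.5% at Div8neg, and 67.4% and 65.6% at Div8pos. Every fraction after Div0 lay below both Div0 samples. It fell by 15.0 points at Div8pos (standard error 0.739, adjusted p = 1.74e-06). Among its 5 stretches of CpGs the difference ran from -25.1 points, 5.3 kb from the start, to -8.03 points at 15.1 kb. Vmn2r107 stood out in the order of its fractions, with 82.8% and 89.8% at Div0, 70.7% and 76.1% at Div8neg and 77.5% and 73.7% at Div8pos, so that both late fractions lay below Div0 and overlapped each other. It fell by 12.9 points at Div8neg (adjusted p = 0.00381) and fell by 10.7 at Div8pos (adjusted p = 0.00239). The call at Div8pos was lost without the Div0 sample (-7.21 points) or the Div8pos sample (-8.81 points) of host 197. The gene with the most CpGs, Vmn1r230 (20), was at 92.1% and 94.6% at Div0 and 91.1% and 89.8% at Div8pos.

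Chromosome 6 holds 4 clusters that differed in size of loss. At 66.5 to 66.8 Mb (5 Vmn1r genes) the mean was -10.3 points ± 0.10. Its Vmn1r39 (9 CpGs) was at 92.1% and 91.9% at Div0, 85.4% and 88.0% at Div8neg and 74.7% and 76.5% at Div8pos, a difference of -16.4 points from Div0 (adjusted p = 0.000128) and -11.1 from Div8neg (adjusted p = 0.00343). Its Vmn1r37, with 23 CpGs, was not called at -9.36 points, but 5 of its CpGs were. At 56.9 to 58.4 Mb (14 Vmn1r genes) the mean was -7.83 points ± 0.83 and 5 genes were called, Vmn1r26 with the largest difference (-13.1 points, adjusted p = 0.000196). Vmn1r26 was at 93.9% and 87.1% at Div0, 79.9% and 78.7% at Div8neg and 76.2% and 78.5% at Div8pos, and without the Div0 sample of host 196 its Div8pos call was lost (-9.73 points). Vmn1r9 (5 CpGs) was at 78.1% and 87.2% at Div0, 76.3% and 85.9% at Div8neg, and 74.3% and 67.9% at Div8pos, and its call against Div8neg was near the threshold (adjusted p = 0.0492). Its hosts were far apart in all 3 fractions, and its call at Div8pos against Div0 was lost without the Div0 or the Div8pos sample of host 197 (-7.03 and -8.37 points). Vmn1r16, with the most CpGs there (26), went from 97.3% and 97.0% at Div0 to 93.3% and 90.7% at Div8pos. At 123.6 to 124.2 Mb (6 Vmn2r genes, mean -8.38 points ± 2.55) Vmn2r25 was called at both late fractions, with 96.6% and 94.2% at Div0, 81.8% and 86.0% at Div8neg, and 84.4% and 78.5% at Div8pos. At 89.6 to 90.2 Mb (8 Vmn1r genes, 139 CpGs) the mean was -5.53 points ± 1.78, and at Div8pos only Vmn1r48 and no CpG was called. There Vmn1r41 (33 CpGs) went from 94.9% and 96.4% at Div0 to 90.2% and 89.5% at Div8pos, and Vmn1r53 (33 CpGs) from 76.7% and 81.4% to 76.8% and 75.7%, which did not pass (adjusted p = 0.106).

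Chromosome 7 holds 10 clusters. Its 6 larger ones had means of -8.62 points (23.6 to 24.7 Mb, 4 of 9 genes called), -8.39 (5.1 to 6 Mb, 1 of 7), -7.58 (12.2 to 13.8 Mb, 2 of 15), -7.15 (92.1 to 94.1 Mb, 2 of 10), -5.45 (21.6 to 22.2 Mb, 0 of 9) and -4.99 (48.9 to 50.2 Mb, 0 of 7). In the last 2, 6 genes each were lower in limma at an adjusted p under 0.05 but under 10 points. The first includes Vmn1r175 (6 CpGs), at 82.6% and 86.5% at Div0, 73.9% and 73.0% at Div8neg and 72.3% and 68.1% at Div8pos, which fell by 11.1 points at Div8neg (adjusted p = 0.00363) and fell by 14.4 at Div8pos (adjusted p = 0.000159). In the same cluster Vmn1r171 kept its level up to Div8neg (85.8% and 89.1% at Div0, 88.3% and 86.2% at Div8neg) and was at 71.2% and 79.9% at Div8pos, where it fell by 11.7 points against Div8neg (adjusted p = 0.00546). Its call at Div8pos against Div0 was lost without the Div8pos sample of host 196 (-7.47 points). Vmn1r157, also there, was among the smallest differences of the family at -2.27 points (adjusted p = 0.207). The genes with the most CpGs of these 6 clusters, in the same order, were Vmn1r159 (18 CpGs, -4.93 points), Vmn1r65 (22, -7.91), Vmn1r89 (25, -5.09), Vmn2r74 (17, -3.87), Vmn1r119 (13, -4.58) and Vmn2r59 (29, -6.88).

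The remaining clusters of 2 or more genes were those of chromosome 5 (109.3 to 109.9 Mb, 6 Vmn2r genes, -8.89 points ± 2.62, 2 called), chromosome 14 (2 genes, -8.86, Vmn2r88 called) and chromosome 10 (78.6 to 78.9 Mb, 4 genes, -8.52, 2 called, and 129.9 to 130 Mb, 2 genes, -7.09, none called by limma, both with an adjusted p under 0.05). In the first, Vmn2r12 had the most CpGs (19) and went from 93.9% and 94.5% at Div0 to 87.8% and 87.4% at Div8pos. Vmn2r88 (19 CpGs) went from 96.0% and 97.0% to 86.1% and 86.3%, and Vmn2r82 (16 CpGs) of chromosome 10 from 91.4% and 93.0% to 82.2% and 80.3%. Of the 11 single genes, Vmn1r1 of chromosome 1 alone was called, from 97.3% and 96.5% to 86.7% and 85.3%. The others were Vmn1r238 (-9.34 points), Vmn2r18 (-8.22), Vmn1r184 (-8.18), Vmn2r123 (-7.93, on an unplaced sequence), Vmn2r29 (-7.73), Vmn1r66 (-4.44), Vmn1r90 (-4.39), Vmn2r118 (-4.24), Vmn2r121 (-2.39) and Vmn1r3 (-2.15). The last 3 did not pass at an adjusted p under 0.05, and in Vmn1r90, Vmn2r121 and Vmn1r3 the 2 hosts differed in sign.

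**Figure D3:**
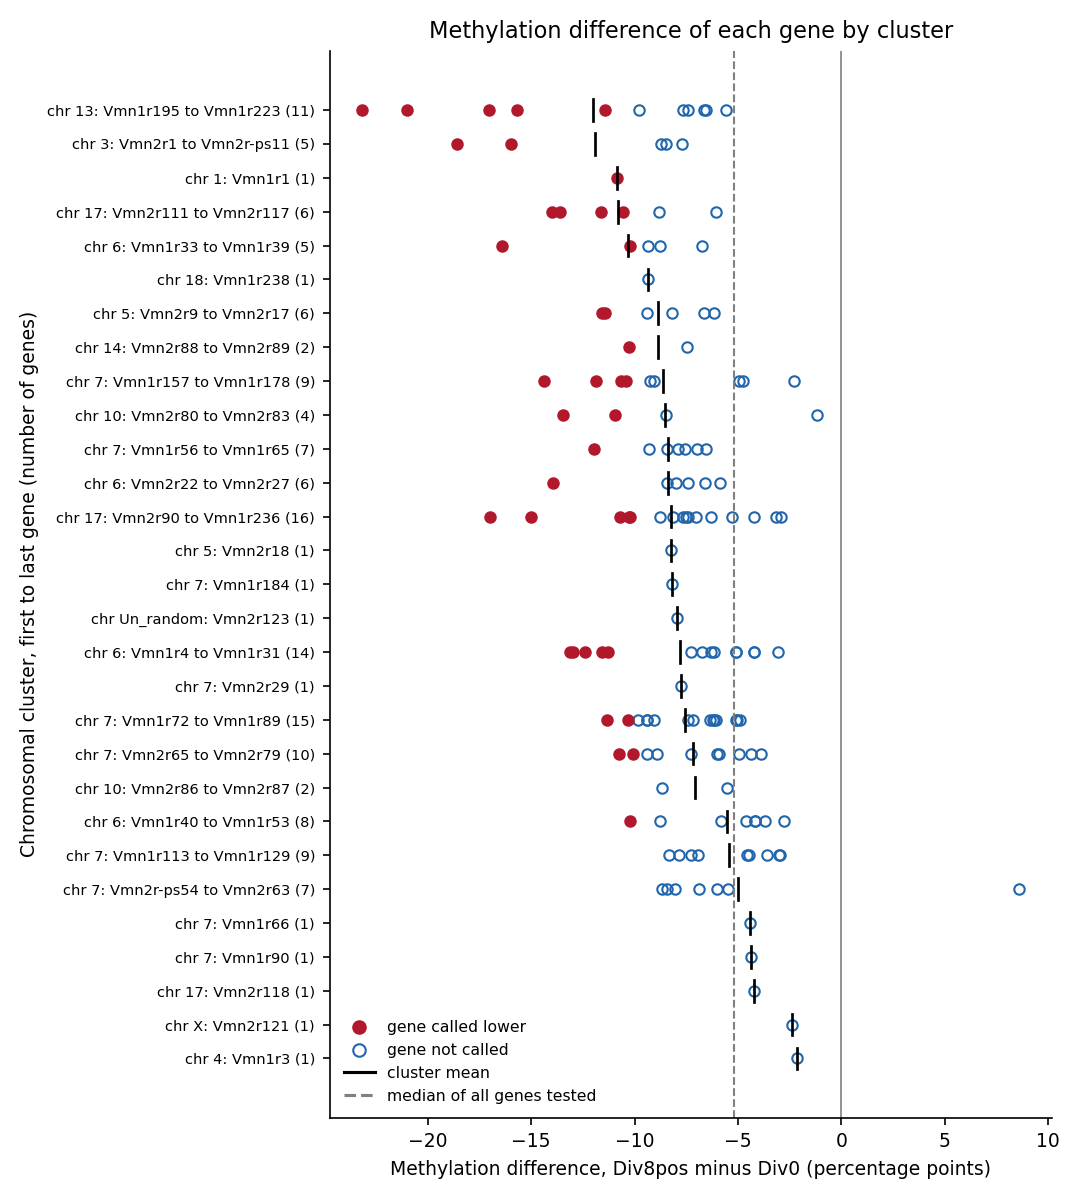
Difference in methylation between Div8pos and Div0 (percentage points) of each vomeronasal receptor gene, in 29 chromosomal clusters ordered by their mean, with the number of genes in brackets; filled points are called lower, bars are cluster means and the dashed line is the median of all genes tested (-5.21). Called genes are most frequent in the clusters at the top, and 1 gene, Vmn2r62, lies at 8.58.

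Vmn2r62 (8 CpGs, chr7:50005393-50005494), in the chromosome 7 cluster at 48.9 to 50.2 Mb, went the other way. It was at 51.2% and 56.3% at Div0, 59.0% and 64.3% at Div1, 59.8% and 61.2% at Div3, 57.8% and 58.4% at Div5, 64.2% and 61.7% at Div8neg, and 61.8% and 62.9% at Div8pos. All 10 later samples were above both Div0 samples. The difference at Div8pos, 8.58 points (standard error 1.94, adjusted p = 0.00282), was the highest among all 16505 genes, and at Div8neg it was 9.19 points (adjusted p = 0.00679). Neither reached 10 points, and the trend over divisions did not pass (adjusted p = 0.122). All 8 CpGs lie in 1 stretch of about 0.1 kb, 43.4 kb from the start, and none was called on its own.

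Several other genes with a low mean held stretches of very different level. In Vmn2r87 (39 CpGs, chromosome 10) 9 CpGs 14.7 kb from a start site were at 4.27% at Div0 and 5.22% at Div8pos, and 3 CpGs 45.1 kb from another start site at 1.77% and 1.27%. Between them along the chromosome, 4 CpGs 17.6 kb from the former start site went from 97.6% ± 0.891 at Div0 to 89.9% ± 0.0573 at Div8neg and 79.9% ± 0.666 at Div8pos, with 2 of them called. In Vmn1r3 (16 CpGs), the lowest member at 22.8%, 13 CpGs at 45.8 kb were at 5.97% at Div0 and 6.13% at Div8pos, whereas the other 3 CpGs were above 94% at Div0 and differed by -9.79 and -13.4 points in their 2 stretches. Vmn1r90 was at 21.4% and 22.4% at Div0 in 2 stretches within 0.5 kb of a start site, and at 25.1% and 27.0% at Div8pos, with no CpG called in them. In the same gene, 3 CpGs 4.2 kb from another start site went from 73.4% to 52.8%. In Vmn2r81 (6 CpGs, -1.20 points), the smallest difference of the family, 3 CpGs were at 6.25% at Div0 and 9.97% at Div8pos.

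**Figure D4:**
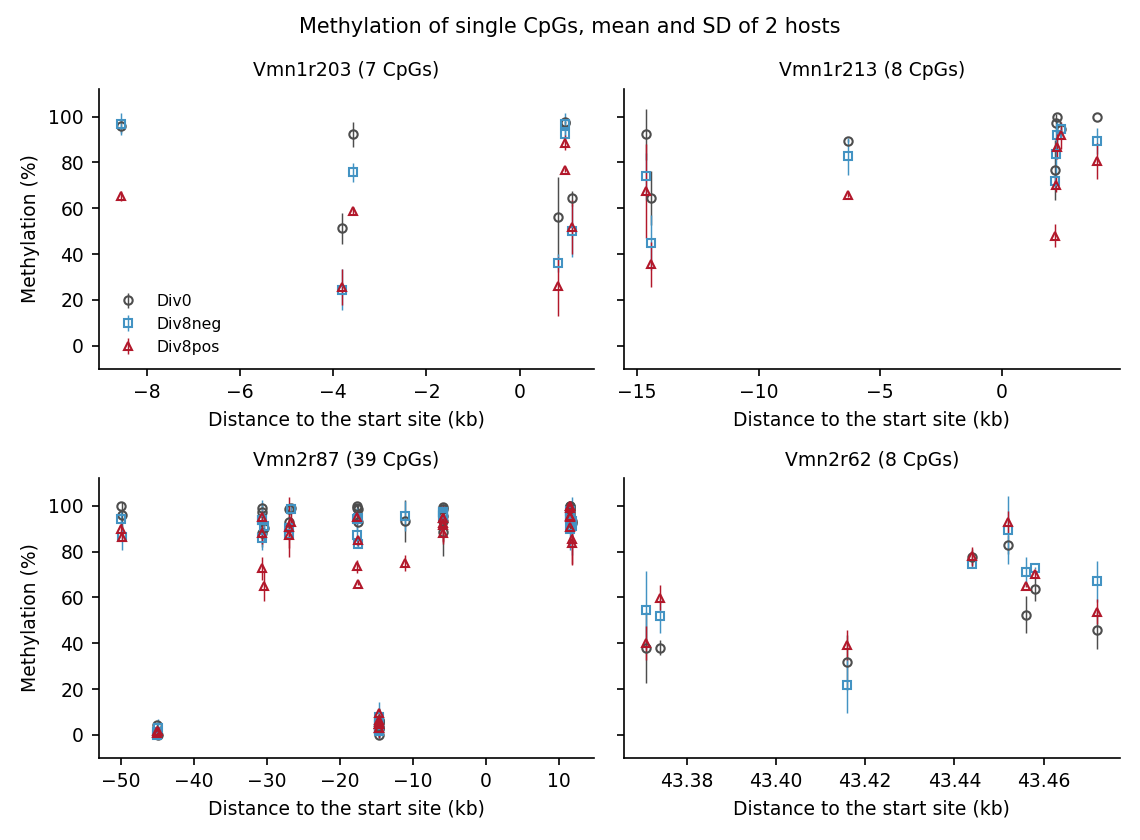
Methylation (%) of each measured CpG of 4 genes against its distance to the nearest start site (kb) at Div0, Div8neg and Div8pos. Points are means and bars SDs of 2 hosts. The CpGs of Vmn2r87 are measured from different start sites, so points close on this axis can lie far apart on the chromosome. The Div8pos points lie below the Div0 points along Vmn1r203 and Vmn1r213, the 2 unmethylated stretches of Vmn2r87 stay near 0, and the CpGs of Vmn2r62 sit within about 0.1 kb.

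Single CpGs were tested with a quasi-binomial model of methylated and unmethylated reads over all 760348 CpGs, and called at an adjusted p under 0.05 and at least 20 points. At Div8pos against Div0, 120 of the 1777 receptor CpGs (6.75%) fell, in 77 of the 153 genes, and none rose, where 6.61% of all CpGs were called lower. The mean over the receptor CpGs went from 89.0% ± 0.143 at Div0 to 81.5% ± 0.411 at Div8pos, and the share at 80% or more from 86.4% to 73.2%. Of the receptor CpGs at 80% or more at Div0, 5.67% were called with a mean of -7.33 points, against 10.19% and -9.83 points for all such CpGs. Those between 20% and 80% at Div0 were called more often, 33 of 189 (17.5%), against 14.1% of all CpGs in that range. None of the 53 under 20% at Div0 was called, which the limit of 20 points fixes. With the host as a block 70 of the 1777 (3.94%) were called, against 4.90% of all CpGs. The count was 19 (1.07%, against 1.89% of all CpGs) without the Div0 sample of host 197 and 60 (3.38%, against 4.36%) without its Div8pos sample. With the block and in both of these the receptor share was below that of all CpGs.

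At Div8neg 6 receptor CpGs (0.338%) were called, against 0.781% of all CpGs. At Div8pos against Div8neg there were 5 (0.281%, against 0.636%), and at Div5 1 (0.0563%, against 0.123%). The counts at Div3 and Div1 were 0 and 0, against 0.027% and 0% of all CpGs. At Div3 and Div1, 121 and 113 receptor CpGs had an unadjusted p under 0.05 in either direction in this test. With the host as a block, none was called in any of these comparisons. The 6 at Div8neg became 1 without the Div0 sample and 0 without the Div8neg sample of host 197. The 5 at Div8pos against Div8neg became 2 without either sample of host 196 in these fractions and 0 without either one of host 197. The 1 at Div5 was in Vmn1r90, an intronic CpG at chr7:15198708 that went from 100% ± 0 at Div0 to 78.9% ± 1.06 at Div5 (adjusted p = 0.00396), and it was not called without the Div0 sample of either host or the Div5 sample of host 197.

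In 24 of the 29 clusters at least 1 CpG was called at Div8pos, and the largest loss per cluster ran from -23.2 points, in Vmn2r-ps54, to -44.2 points, in Vmn1r238. Vmn2r90 had a CpG at chr17:17885879 that went from 83.7% ± 12.2 at Div0 to 41.3% ± 9.46 at Div8pos (adjusted p = 0.00426). Vmn1r39 had one at chr6:66782419 that went from 82.1% ± 3.01 to 46.5% ± 2.68 (adjusted p = 1.08e-06). Both are intergenic with no other measured CpG within 100 bp. A CpG of Vmn1r175 (chr7:24603167) was called at both late fractions, from 40.2% ± 3.02 at Div0 to 10.9% ± 11.05 at Div8neg and 13.5% ± 5.85 at Div8pos.

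The loss was largest at CpGs that stood alone. Receptor CpGs at 80% or more at Div0 with no other measured CpG within 100 bp differed by a mean of -11.01 points at Div8pos and 12.9% of the 373 were called. The mean was -7.29 points with 1 or 2 such neighbours (4.64% called), -5.31 with 3 to 5 (2.58%) and -3.57 with 6 or more (0 of 132 called). All CpGs of the table at 80% or more showed the same order, at -12.5, -9.70, -7.12 and -5.34 points, with 16.2%, 9.36%, 4.84% and 2.82% called, so that the receptor CpGs were less changed at each step. By distance, 26 of the 197 receptor CpGs within 5 kb of a start (13.2%) were called, 44 of the 947 between 5 and 20 kb (4.65%) and 50 of the 633 beyond (7.90%), against 3.04%, 9.94% and 10.12% of all CpGs at these distances. Among CpGs at 80% or more at Div0 the shares were 9.68%, 4.07% and 7.10% for the receptors and 11.6%, 10.7% and 10.53% for all. The difference between receptor CpGs and others was not tested, since CpGs of 1 gene share reads and neighbours.

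**Figure D5:**
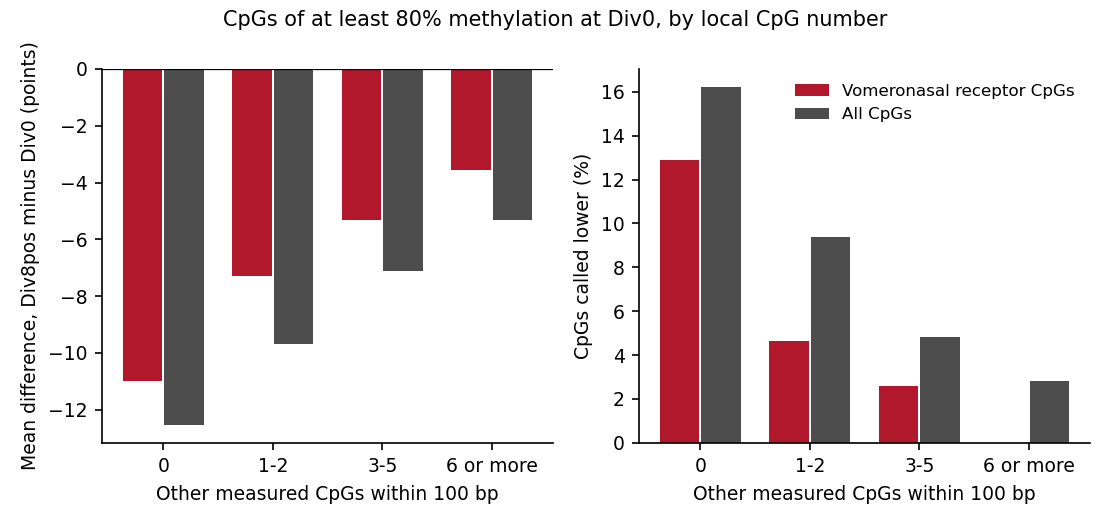
Mean difference between Div8pos and Div0 (percentage points, left) and share of CpGs called lower (%, right) for CpGs of at least 80% methylation at Div0, by the number of other measured CpGs within 100 bp, for the vomeronasal receptor CpGs and all CpGs. Both measures shrink from 0 neighbours (-11.01 points for the receptors) to 6 or more (-3.57 points).

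Of 38 listed genes for vomeronasal signalling and co-receptors, 26 had 5 or more CpGs, at a median of 47.1% at Div0, and 5 fell at Div8pos and none rose (15.7% of all genes were called lower). Their median difference was -4.79 points. They include H2-M10.2, H2-M10.3 and H2-M10.4, non-classical MHC class I genes expressed with Vmn2r receptors in vomeronasal neurons, which differed by -15.3, -20.0 and -19.3 points and were called (adjusted p = 1.79e-05, 1.19e-06 and 2.85e-06). Calr4, a chaperone of the calreticulin family, went from 84.1% ± 0.437 at Div0 to 72.5% ± 6.72 at Div8neg and 46.4% ± 1.84 at Div8pos, a difference of -37.7 points (adjusted p = 4.43e-06). Ano2, a calcium-activated chloride channel, fell by 10.9 points (adjusted p = 7.71e-06). H2-M1, H2-M10.5 and the cation channel Trpc2, through which vomeronasal neurons respond, differed by -9.70, -8.58 and -6.58 points, short of the limit. At Div8neg 1 of the 26 was called, Calr4, which fell by 11.6 points (1.49% of all genes were called lower). At Div8pos against Div8neg 2 of the 26 fell, Calr4 and H2-M10.3 (2.09% of all genes).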

How the data were processed

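Reduced representation bisulfite libraries of the 12 samples were read with 50-base single-end reads, and the submitters' processing notes name Bismark, Bowtie2 and the mouse build mm9, without versions. The deposited tables give, per CpG, methylated and unmethylated read counts, a methylation fraction, an assigned gene and the distance to the nearest start site. Here levels were recomputed from the counts as percent, and the deposited fraction was not used. The main table holds CpGs with at least 10 reads in every sample. Groups and hosts were taken from the sample titles.

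Gene levels (mean over CpGs within 50 kb, at least 5 CpGs) were fitted with limma 3.58.1 in R 4.3.3 over all 12 samples. CpGs were fitted with a quasi-binomial likelihood ratio over a dispersion moderated across CpGs (prior 1.16, never below 1). Both were adjusted by Benjamini-Hochberg over all features. Both were tested on simulated data. With 2 samples a fraction, an exact permutation test cannot reach 0.05. The gene p-values rest on the spread between the 2 hosts, shared over all fractions and moderated across genes. The CpG p-values rest on read counts and the moderated dispersion, not on the spread between hosts at each CpG. With the dispersion of each CpG alone, 0 of the 1777 receptor CpGs were called at Div8pos. The replicate number is the host in the labels, so it pairs the fractions. Deviations of genes from the fraction means correlated at -0.0109 to 0.0215 between fractions of a host. Named genes were the member with the most CpGs in each cluster, the 10 largest and 5 smallest differences, any rise and calls in the other comparisons. Members and lists were chosen with earlier results of these data known. Promoter sequences are those of RefSeq (GRCm38.p6), matched by symbol. No position was converted between builds.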

Additional observations from a re-analysis of the deposited data

How the results depend on the processing

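A receptor gene was called higher in 4 settings (1 gene each): with a size limit of 5 points, without one, without the Div0 sample of host 197 (each at Div8pos and Div8neg) and without the Div8neg sample of host 197 (at Div8neg). Called lower at Div8pos, Div8neg, Div8pos against Div8neg and along the trend (40, 7, 5 and 5 genes), the counts were 3, 0, 0 and 0 of 46 genes with 20 reads per CpG; 3, 1, 2 and 1 of 15 within 5 kb; 66, 13, 16 and 9 of 198 with 3 or more CpGs; 75, 11, 11 and 6 of 203 at 5 reads or more. In the same order 10.98%, 1.36%, 1.61% and 1.23% of all genes were called with 20 reads per CpG, and 7.83%, 1.09%, 1.55% and 0.983% within 5 kb. With 3 or more CpGs the shares of all genes were 17.5%, 2.11%, 2.98% and 1.63%, and at 5 reads or more 19.7%, 1.84%, 2.73% and 1.40%. Tested without a size limit the receptor counts were 141, 78, 68 and 87, and 122, 46, 42 and 41 at 5 points, where Div5 gave 2 under either. Of all genes, 80.4%, 41.6%, 54.2% and 45.1% were lower without a size limit, and 51.5%, 14.5%, 19.3% and 12.6% at 5 points. Read sums gave 4 at Div8neg (2.61%, against 4.89% of all genes). Log2 ratios of the sums gave 3 at Div8neg (1.96%, against 4.70%) and 0 at Div8pos against Div8neg (0%, against 0.485%). The replicate block gave 40, 7, 4 and 5 genes, with no call outside those without the block at Div8pos, Div8neg or along the trend. With the block 15.7%, 1.48%, 2.08% and 1.11% of all genes were called. Leaving out 1 sample gave 33 to 43, 4 to 10, 5 to 8 and 3 to 6 genes.

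For CpGs at Div8pos, Div8neg, Div8pos against Div8neg and Div5 (120, 6, 5 and 1), the counts were 24, 0, 3 and 0 at 20 reads; 26, 0, 2 and 1 within 5 kb; 282, 12, 8 and 1 at 10 points; 132, 10, 11 and 1 with a binomial model; and 70, 0, 0 and 0 with the replicate block. At Div8pos these were 4.61%, 13.2%, 15.9%, 7.43% and 3.94% of the receptor CpGs. Of all CpGs, 4.94%, 3.04%, 14.6%, 7.04% and 4.90% were called in the same order. With the dispersion of each CpG alone the receptor counts were 0, 0, 0 and 0, although 369, 121, 71 and 27 were lower at an unadjusted p under 0.05. Leaving out 1 sample gave 19 to 125, 0 to 7, 0 to 2 and 0 to 1. At Div3 and Div1 the counts stayed 0 in each of these settings.

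Of 256 refits of 21 named genes at Div8pos, 241 kept direction and call, 9 lost the call (Vmn1r9 in 4, down to -7.03 points, Vmn2r107 in 2, Vmn1r171 at -7.47, Vmn1r26 at -9.73 and Vmn2r3 at -9.15), 3 gained a call (Vmn2r62, higher) and 3 uncalled values changed sign (Vmn2r81 and Vmn2r121). The median coverage of 20 to 64 reads per CpG limits what single CpGs can show.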
